A study of Mus musculus with 30 samples.

Results

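The activin ligand subunits Inhba and Inhbb and the follistatin family genes Fst, Fstl1 and Fstl3 were followed across kidney and muscle of mice with a tubular kidney disease. The members were every probe set annotated to 1 of these symbols and to no other, which gave 8 probe sets for 5 of the 17782 genes measured. Inhba and Fstl3 had 1 probe set each, and Inhbb, Fst and Fstl1 had a pair each.

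Activins are dimers of inhibin beta subunits. Activin A is built from the product of Inhba and activin B from that of Inhbb, and both signal through type II and type I receptors to SMAD2 and SMAD3. Follistatin, from Fst, and the product of Fstl3 wrap around activin dimers and keep them from their receptors, and activin signalling can itself induce Fst. Fstl1 shares the follistatin domain but is a secreted glycoprotein of mesenchymal cells with other binding partners. In skeletal muscle activins are known to restrain growth, and follistatin to promote it.

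Arrays were made from both tissues of 15 mice aged 6 weeks. Wild-type animals and Kif3aΔTub mutants received PBS or the soluble activin receptor IIB fusion protein sActRIIB-Fc, a decoy that captures activins and their relatives and is referred to as the trap. The dose was 10 mg/kg by intraperitoneal injection once a week, given 2 times up to week 6. In each tissue there were 3 wild-type animals on PBS, 4 wild-type animals on the trap, 4 mutants on PBS and 4 mutants on the trap. The genotype label of the mutants names KSP-Cre, a Cre recombinase under a promoter active in kidney tubule epithelium, so that Kif3a, a motor subunit required for primary cilia, was the target in tubules and not in muscle. The labels do not say which muscle was taken, how the PBS animals were handled or whether animals were littermates. All values are log2 intensities of single probe sets, and levels are not compared between probe sets except to mark low readings.

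Both tissue labels matched their defining genes. Averaged over a list of 8 muscle fibre genes, muscle arrays lay at 14.09 to 14.16 and kidney arrays at 4.16 to 4.52. Averaged over 8 proximal tubule genes, wild-type kidneys lay at 12.42 to 12.65 and muscles at 4.86 to 5.37. Of the 3 probe sets for Kif3a, all were lower in mutant kidneys on PBS (-0.50, -0.41 and -0.41, limma adjusted p = 0.0116, 0.00414 and 0.00651). On the trap the same probe sets differed by -0.02, -0.18 and -0.07 and none was called, so this gene did not separate the treated kidneys by genotype. On the first of them kidneys read 7.83 ± 0.07 (SD) in wild types on PBS, 7.65 ± 0.22 in wild types on the trap, 7.33 ± 0.12 in mutants on PBS and 7.63 ± 0.30 in mutants on the trap, and muscles 7.32 ± 0.38, 7.47 ± 0.17, 7.18 ± 0.33 and 7.33 ± 0.10. Whole tissue was measured, so fewer cells of a type and less RNA per cell cannot be told apart in any of the results.

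Promoter sequences are shown for the 3 genes whose RefSeq window of 250 bases upstream of the transcript start (GRCm38.p6) lies outside the annotated gene, because these genes rose together in mutant kidneys. The windows are chr1:119422249-119422498 on the minus strand for Inhbb, chr16:37776805-37777054 on the plus strand for Fstl1 and chr10:79777024-79777273 on the plus strand for Fstl3. Capitals mark GTCT or its reverse complement AGAC, the short element that SMAD3 and SMAD4 bind.
Inhbb: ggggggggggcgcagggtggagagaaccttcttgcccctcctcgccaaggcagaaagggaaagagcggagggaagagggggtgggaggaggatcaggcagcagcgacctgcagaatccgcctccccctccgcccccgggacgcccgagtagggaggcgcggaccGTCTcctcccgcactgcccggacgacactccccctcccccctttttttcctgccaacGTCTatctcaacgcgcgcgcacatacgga
Fstl1: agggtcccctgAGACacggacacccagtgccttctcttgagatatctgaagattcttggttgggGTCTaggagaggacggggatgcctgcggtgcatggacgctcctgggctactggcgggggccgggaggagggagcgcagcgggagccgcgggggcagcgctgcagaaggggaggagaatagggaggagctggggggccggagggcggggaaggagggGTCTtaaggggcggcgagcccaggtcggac
Fstl3: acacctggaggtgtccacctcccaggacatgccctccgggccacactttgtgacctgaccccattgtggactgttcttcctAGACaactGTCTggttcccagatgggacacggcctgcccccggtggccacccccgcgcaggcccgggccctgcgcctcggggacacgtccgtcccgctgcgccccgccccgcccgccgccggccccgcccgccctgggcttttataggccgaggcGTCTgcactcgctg
The Inhbb window holds 2 such elements, the Fstl1 window 3 and the Fstl3 window 3. An element this short is common, and 82.9% of 32851 promoter windows of the same length hold at least 1. The window for Inhba (chr13:16011601-16011850, plus strand) lies inside the annotated gene at chr13:16004256-16031609 and holds 1. The longer form CAGAC, or GTCTG on the other strand, overlaps GTCT and was found only in the Fstl3 window among the 4, with 2 matches, against 42.2% of all windows. Neither the palindrome GTCTAGAC (0.167% of windows) nor the AP-1 element TGANTCA (6.75%) was present in any of the 4. GGGCGG, the core bound by SP1, occurred 1 time for Inhbb, 2 times for Fstl1 and 4 times for Fstl3 and not for Inhba, against 32.7% of windows with at least 1. The base composition differed along the same line, with 68.0%, 68.0% and 71.2% G and C for Inhbb, Fstl1 and Fstl3 and 43.2% for Inhba, against a median of 52.4%. Fst lies at chr13:114452262-114458989. The matches are a description of these letters and were not tied to binding.

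Kidney disease came with a rise of both activin subunits and all 3 follistatin family genes in the kidney. On PBS, 7 of the 8 probe sets, covering all 5 genes, were called higher in mutant than in wild-type kidneys and 0 lower, with called meaning a limma adjusted p under 0.05 over all 31563 probe sets. This comparison moved much of the array: 23.8% of all probe sets were called higher and 25.4% lower, 49.3% in all. The count for the members is above that share and all in 1 direction, but the genes were chosen with results of these data known. No array overlap was seen on 7 of the 8, against 57.1% of all probe sets. The rises were largest for Inhbb and Fstl1 and smallest for Fstl3, leaving aside the second Inhbb probe set.

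Inhbb, the subunit of activin B, showed the largest difference. On probe set 1426858_at the wild-type kidneys on PBS read 5.23, 5.24 and 5.02, and the mutants 8.35, 7.78, 9.01 and 8.77. Every mutant lay more than 2 log2 units above every wild-type animal. The difference was 3.32 ± 0.29 (SE; n = 4 and 3; limma adjusted p = 2.01e-07), a 9.96-fold higher intensity. The wild-type readings were low, at a mean percentile of 34.4 of the probe sets on an array. They lie above the 4.16 to 4.52 that kidneys averaged over the muscle fibre genes. Muscles averaged 4.86 to 5.37 over the proximal tubule genes, a range that holds these readings but comes from the other tissue. At readings this low the size of the fold is uncertain. The other Inhbb probe set did not follow. On 1426859_at the wild types read 6.68, 6.40 and 6.39 and the mutants 6.61, 6.31, 6.50 and 6.62, which overlap, with a difference of 0.02 ± 0.12 (95% interval -0.24 to 0.28, adjusted p = 0.903). The probe sets for this gene therefore disagree, the annotation used here does not say which part of the transcript each one reads, and the mean of the pair gives 1.67.

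Inhba, the subunit of activin A, rose less but with a tight spread. The wild-type kidneys on PBS read 5.22, 5.46 and 5.59 and the mutants 7.02, 6.96, 7.01 and 6.87. The groups lie more than 1 log2 unit apart at their nearest arrays. The difference of 1.54 ± 0.13 (adjusted p = 1.18e-07) is a 2.91-fold higher intensity.

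The antagonist Fst rose beside its ligands, by a similar amount on both probe sets. On 1421365_at the wild types read 6.80, 6.56 and 7.02 and the mutants 8.52, 8.05, 8.20 and 8.30 (1.47 ± 0.18, adjusted p = 7.77e-06). On 1434458_at they read 6.59, 6.33 and 6.64 against 8.46, 8.03, 8.37 and 8.26 (1.76 ± 0.30, adjusted p = 0.000178). No mutant array overlapped a wild-type array on either probe set.

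Fstl3, which like follistatin binds activins, had the smallest rise. Wild-type kidneys on PBS read 6.25, 6.31 and 6.25 and mutants 7.49, 6.55, 7.34 and 7.20. One mutant, at 6.55, stood well below the other mutants but still above every wild type. The difference was 0.88 ± 0.22 (adjusted p = 0.00337).

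Fstl1 rose on both of its probe sets. On 1416221_at the wild types read 8.84, 8.62 and 8.83 and the mutants 11.66, 11.18, 11.68 and 11.32 (2.70 ± 0.20, adjusted p = 4.39e-08). On 1448259_at they read 8.55, 8.26 and 8.51 against 11.05, 10.64, 11.33 and 11.17 (2.61 ± 0.22, adjusted p = 1.52e-07). The groups were separated by more than 2 log2 units on each, and the fold of the intensity was 6.48 and 6.10.

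**Figure D1:**
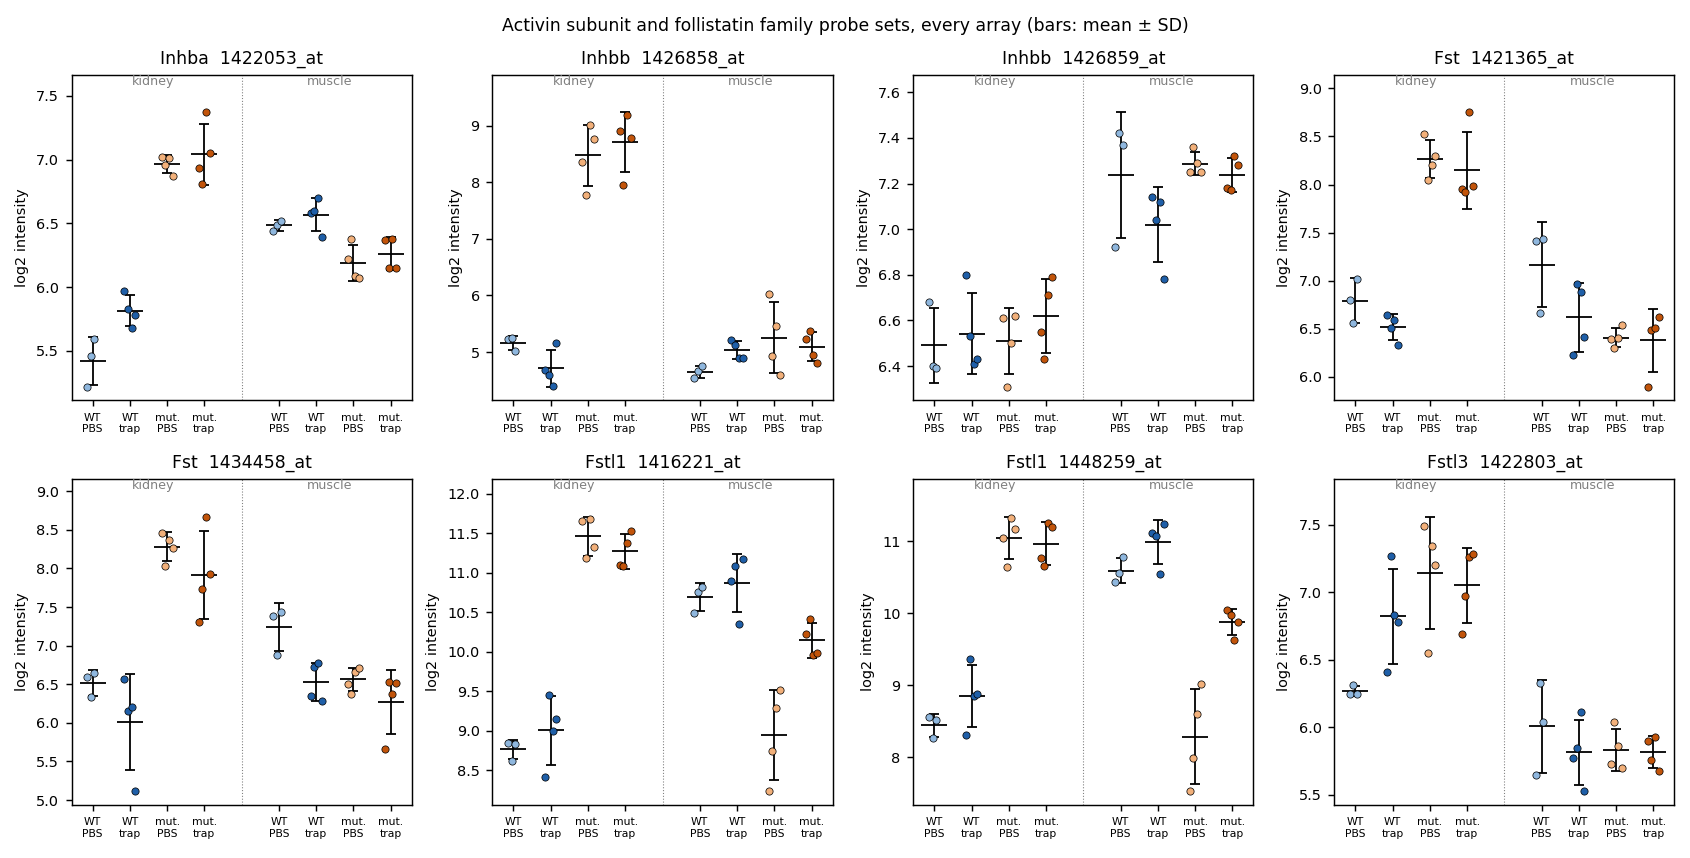
Log2 intensity (vertical axis) of the 8 probe sets on every array, by tissue, genotype and treatment (WT, wild type; mut., Kif3aΔTub mutant); points are animals, and bars are the mean ± SD of 3 or 4 animals. In kidney the mutants stand above the wild types on 7 of the panels under PBS, and in muscle the mutants on PBS stand lowest for Fstl1, at 8.24 to 9.51 on 1416221_at against 10.49 to 10.82 in wild types.

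Markers of several cell types moved with these genes in the kidney. Averaged over 8 fibroblast and pericyte genes, wild-type kidneys on PBS lay at 8.11 to 8.51 and mutants at 10.07 to 10.46, and 7 of the 8 genes were called higher. The mean of 8 macrophage and myeloid genes went from 6.16 to 6.45 up to 8.96 to 9.48, with 8 of 8 called higher, and 8 of 8 collecting duct genes were higher, with means of 8.91 to 9.10 and 11.07 to 11.56. All 8 proximal tubule genes were lower, with means of 12.53 to 12.57 in wild types and 8.90 to 10.61 in mutants. Other lists moved less evenly. Of 6 endothelial genes 2 were higher, and of 6 tendon genes 2 were higher and 1 lower. Of 5 adipocyte genes measured 0 were called, and their means were widely spread, at 6.28 to 8.18 in wild types and 5.35 to 8.78 in mutants. Of all genes 24.7% were called higher and 26.2% lower in this comparison. RNA measures differed between the kidney groups as well. The difference between the 3 prime and 5 prime probe sets of actin, a measure of RNA integrity and labelling, was 1.4 to 1.5 in wild types on PBS, 1.38 to 1.60 in wild types on the trap, 0.76 to 1.37 in mutants on PBS and 0.61 to 1.64 in mutants on the trap. The 18S ribosomal RNA control lay at 12.97 to 13.06, 12.43 to 12.80, 12.86 to 13.43 and 12.00 to 12.70 in the same groups. Every kidney array on the trap lay below every kidney array on PBS in 18S, so a fit with this covariate cannot separate it well from the trap. With either measure as a covariate, chosen after seeing the data, all 7 member calls for genotype on PBS were kept. The part of these cell types in the rise of the activin and follistatin genes was not tested.

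No member was called for the trap in mutant kidneys. Between mutants on the trap and mutants on PBS 0 of the 8 probe sets were called by limma, 0 had an unadjusted p under 0.05, and the lowest adjusted p was 0.641, where 1.61% of all probe sets were called (508, and 27 with the 18S covariate). On 0 of the 8 were the arrays apart, against 7.39% of all. For Inhba the treated mutants read 6.93, 6.81, 7.37 and 7.05, on both sides of the untreated mutants (0.08 ± 0.12, 95% interval -0.17 to 0.33). For Inhbb 1426858_at they read 8.91, 7.95, 9.18 and 8.78 (0.23 ± 0.26, interval -0.34 to 0.79). Among treated mutants Fst 1434458_at had the widest spread, at 7.31, 7.73, 8.67 and 7.93. Its difference was -0.37 ± 0.28 with an interval of -0.96 to 0.23, and the other Fst probe set gave -0.12. For Fstl1 the intervals were -0.58 to 0.20 and -0.51 to 0.35, and for Fstl3 -0.53 to 0.33, and changes within these bounds could not be resolved with 4 animals in each group.

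In wild-type kidneys the trap gave no called member either (0 of 8, lowest adjusted p 0.14, 1.23% of all probe sets called, which is 387, and 11 with the 18S covariate). Unadjusted p was under 0.05 for 2 probe sets, and on the same 2 the arrays did not overlap, where 15.4% of all probe sets did not overlap. Inhba read 5.97, 5.83, 5.68 and 5.78 on the trap against 5.22, 5.46 and 5.59 on PBS (0.40 ± 0.13, limma adjusted p = 0.14). Fstl3 read 6.41, 7.27, 6.83 and 6.78 against 6.25, 6.31 and 6.25 (0.55 ± 0.22, adjusted p = 0.242). The 2 genes were higher in all treated animals, and neither passed the threshold over the whole array. The untreated wild-type arrays in this comparison are the ones used in the genotype comparison on PBS.

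Among treated animals the genotype difference in kidney was again present. The group means come from animals not used for the PBS comparison, while the estimate of spread was shared over all kidney arrays. Called higher were 6 of the 8 probe sets, where 20.9% of all probe sets were called higher and 42.4% in either direction. The arrays did not overlap on the same number, 6, against 35.4% of all probe sets. Inhbb 1426858_at read 4.69, 4.60, 4.40 and 5.16 in treated wild types and 8.91, 7.95, 9.18 and 8.78 in treated mutants (3.99 ± 0.26, limma adjusted p = 2.9e-08). The treated mutants were also higher for Inhba (1.22 ± 0.12), for Fst (1.63 ± 0.17 and 1.90 ± 0.28) and for Fstl1 (2.26 ± 0.18 and 2.12 ± 0.20). Array medians were themselves 0.125 higher in treated mutant than in treated wild-type kidneys, which is small against these differences.

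Fstl3 was the gene whose call depended on the treatment. Treated mutants read 6.69, 6.97, 7.26 and 7.28 and treated wild types 6.41, 7.27, 6.83 and 6.78, which overlap (0.23 ± 0.20, limma adjusted p = 0.378). The test of whether the genotype difference changed with treatment gave -0.65 ± 0.30 (adjusted p = 0.343), so a change of the difference was not shown. For that test 0 of the 8 probe sets were called, 1 had an unadjusted p under 0.05, and 1.18% of all probe sets were called. Treated mutants against untreated wild types gave 7 probe sets called higher (20.8% of all probe sets; 45% in either direction; 7 did not overlap, against 52.7% of all). The size was 1.62 ± 0.13 for Inhba, 3.54 ± 0.29 for Inhbb 1426858_at and 0.78 ± 0.22 for Fstl3. With the 18S ribosomal RNA signal as a covariate the last was 0.49 (limma adjusted p = 0.334), but in kidney this covariate is confounded with the trap.

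Muscle went the other way. In mutants on PBS both Fst and Fstl1 were lower than in wild-type muscle, on both probe sets of each, and no member was called higher. These 4 of 8 called lower stand beside 7.55% of all probe sets called lower and 15.4% called in either direction, and on 5 of the 8 probe sets the arrays did not overlap, against 22.8% of all.

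Fstl1 had the largest differences among the members in muscle. On 1416221_at wild-type muscles on PBS read 10.49, 10.76 and 10.82, and mutants 8.24, 8.74, 9.29 and 9.51. On 1448259_at they read 10.44, 10.56 and 10.78 against 7.53, 7.98, 8.60 and 9.02. The mutants were all below the wild types and spread over more than 1 log2 unit, while the wild types lay close together. The differences were -1.74 ± 0.25 (limma adjusted p = 0.000347) and -2.31 ± 0.26 (adjusted p = 4.92e-05), which are intensities lower by 3.35-fold and 4.96-fold.

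Fst, the activin antagonist, was lower by a smaller amount. On 1421365_at wild-type muscles read 7.41, 6.66 and 7.43 and mutants 6.39, 6.30, 6.40 and 6.54 (-0.76 ± 0.22, limma adjusted p = 0.0263). On 1434458_at they read 7.39, 6.88 and 7.44 against 6.50, 6.38, 6.66 and 6.71 (-0.67 ± 0.20, adjusted p = 0.0335). The mutants stood close together and below all wild types, and wild-type replicate 2, at 6.66 and 6.88, came nearest to them. The calls rested on few animals: without wild-type replicate 1 the adjusted p was 0.108 and 0.113, without wild-type replicate 3 it was 0.112 and 0.125, and without mutant replicate 1 it was 0.0518 and 0.0692. Without mutant replicate 2 the second probe set had an adjusted p of 0.0600.

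The ligand subunits and Fstl3 did not pass the threshold in this muscle comparison. Inhba read 6.44, 6.49 and 6.52 in wild types and 6.22, 6.38, 6.09 and 6.07 in mutants, which do not overlap (-0.30 ± 0.11, limma adjusted p = 0.0852). Inhbb 1426858_at was spread widely among the mutants, at 6.02, 4.93, 5.46 and 4.59 against 4.54, 4.66 and 4.75 in wild types (0.60 ± 0.24, adjusted p = 0.110). Both groups read low on it, at mean percentiles of 36.1 in mutants and 24.5 in wild types. The other Inhbb probe set is given next. Its other probe set gave 0.05 ± 0.13, and Fstl3 gave -0.17 ± 0.16 with overlapping arrays. Other settings moved these values across the threshold. With array weights and all arrays kept both Inhba (-0.33, adjusted p = 0.038) and Inhbb 1426858_at (0.66, adjusted p = 0.0322) were called, without mutant replicate 2 Inhba had an adjusted p of 0.0352, and without mutant replicate 4 Inhbb 1426858_at had 0.0236.

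**Figure D2:**
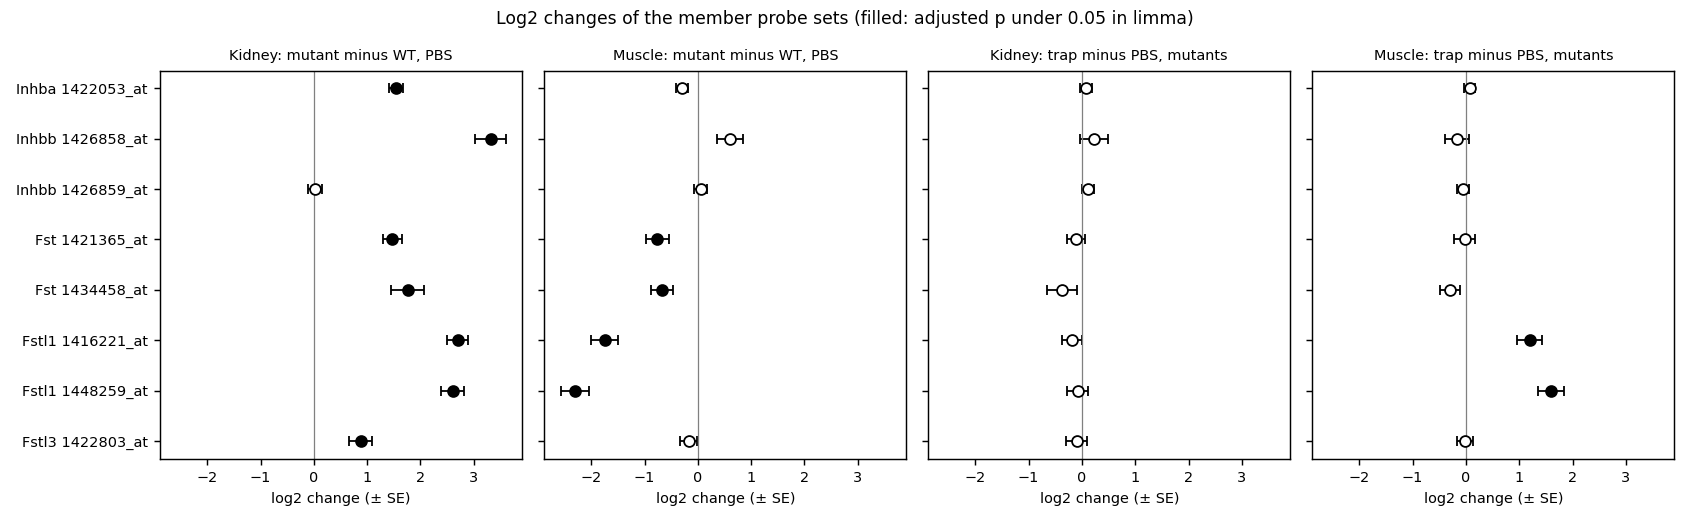
Log2 change (horizontal axis) ± SE from limma for each probe set in 4 comparisons; filled points are called at an adjusted p under 0.05. In kidney 7 probe sets were higher in mutants on PBS and 0 were called for the trap in mutants, and in muscle the Fstl1 probe sets differed by -1.74 and -2.31 in mutants on PBS and by 1.20 and 1.60 with the trap in mutants.

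In mutant muscle the trap came with higher Fstl1 and with no called change in the other members. On 1416221_at the treated mutants read 10.22, 10.42, 9.96 and 9.98, and on 1448259_at 10.05, 9.97, 9.63 and 9.88. All 4 lay above all 4 untreated mutants on both probe sets, and they were also less spread. The rises were 1.20 ± 0.23 (limma adjusted p = 0.00979) and 1.60 ± 0.24 (adjusted p = 0.00231), intensities 2.29-fold and 3.02-fold higher. These 2 of 8 probe sets belong to 1 gene, where 3.49% of all probe sets were called higher and 6.13% in either direction. They were also the 2 without overlap, against 10.9% of all probe sets. The untreated mutants are the same arrays as in the genotype comparison on PBS, so the lower level there and the rise here are not independent of each other.

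Fst had no called change with the trap in mutants. On 1421365_at treated mutant muscles read 5.90, 6.49, 6.51 and 6.62 (-0.03 ± 0.20, interval -0.45 to 0.40), and on 1434458_at 5.66, 6.53, 6.38 and 6.51 (-0.29 ± 0.19, interval -0.69 to 0.10). One treated mutant was the lowest muscle array on both probe sets, at 5.90 and 5.66. Inhba changed by 0.07 ± 0.10, Inhbb by -0.16 ± 0.23 and -0.05 ± 0.12, and Fstl3 by -0.01 ± 0.15, with overlapping arrays in each case.

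In wild-type muscle the trap gave 0 called members (lowest limma adjusted p 0.246; 2 probe sets had an unadjusted p under 0.05; 0.0507% of all probe sets were called). The arrays did not overlap on 2, an Inhbb and a Fst probe set, against 12.7% of all probe sets. The 2 with the low unadjusted p were the pair for Fst. On 1434458_at treated wild types read 6.35, 6.72, 6.77 and 6.28, all below the untreated 7.39, 6.88 and 7.44 (-0.70 ± 0.20). On 1421365_at they read 6.23, 6.97, 6.88 and 6.41, which overlap 1 untreated array (-0.54 ± 0.22, adjusted p = 0.38). Fstl1 read 10.90, 11.08, 10.35 and 11.17 on 1416221_at (0.18 ± 0.25, interval -0.35 to 0.72), around and above the untreated wild types. The untreated wild types with their Fst levels near 7.4 in 2 of 3 animals enter both this comparison and the genotype comparison on PBS.

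Whether the trap acted differently on Fstl1 in mutants and in wild types was not settled. The interaction was 1.01 ± 0.34 (limma adjusted p = 0.219) and 1.20 ± 0.36 (adjusted p = 0.174). For this test 0 of 8 probe sets were called, 2 had an unadjusted p under 0.05, and 0.12% of all probe sets were called.

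Treated mutant muscles stood between the untreated mutants and the untreated wild types for Fstl1. Against treated wild types 1448259_at differed by -1.11 ± 0.24 (limma adjusted p = 0.0383), the single call among the 8 where 0.96% of all probe sets were called lower and 1.05% in either direction (3 probe sets did not overlap, against 8.75% of all), and 1416221_at gave -0.73 ± 0.23 (adjusted p = 0.166). The call for 1448259_at was lost when any of 7 of the 8 arrays compared was left out (all 4 treated mutants and wild-type replicates 1, 2 and 4). Against untreated wild types the arrays did not overlap on either probe set, and the differences of -0.55 ± 0.25 and -0.71 ± 0.26 did not pass (adjusted p = 0.46 and 0.309). With only these groups in the fit 1448259_at was called (-0.71, adjusted p = 0.0435). In that comparison the single call was Fst 1434458_at at -0.97 ± 0.20 (adjusted p = 0.0375), beside -0.79 ± 0.22 on its other probe set (adjusted p = 0.133), where 0.57% of all probe sets were called lower and 0.703% in either direction. On 6 of the 8 the arrays did not overlap in that comparison, against 11.2% of all probe sets. The Fst call was lost without wild-type replicate 1 or 3 or treated mutant replicate 1 or 3, and with only these groups in the fit (adjusted p = 0.0812).

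Connective tissue genes moved with Fstl1 in muscle for genotype on PBS and for the trap in mutants. In wild types the mean of the tendon genes was lower on the trap than on PBS, while that of Fstl1 was not. Averaged over 8 fibroblast and pericyte genes, muscles lay at 10.87 to 10.98 in wild types on PBS, 10.71 to 11.01 in wild types on the trap, 8.46 to 9.26 in mutants on PBS and 9.86 to 10.25 in mutants on the trap. Of the 8, 7 were called lower in mutants on PBS and 5 higher with the trap in mutants. Beside these and the list counts below, 8.81% of all genes were called lower in mutants on PBS. With the trap in mutants 4.11% were called higher. Col1a1, a chain of type I collagen, changed by -3.93 ± 0.26 and 2.45 ± 0.25, and Thy1, a surface protein of fibroblasts, by -2.66 ± 0.22 and 1.58 ± 0.20. Averaged over 6 tendon genes, the same groups lay at 8.66 to 9.05, 7.89 to 8.50, 6.66 to 7.0 and 7.18 to 7.53, with 5 of 6 lower in mutants on PBS and 2 of 6 higher with the trap in mutants. The muscle fibre list stayed at 14.09 to 14.16 in all 4 groups. Whether readings this high could still register a change in muscle fibre RNA was not tested. Endothelial and myeloid genes were also lower in places. Averaged over 6 endothelial genes, muscles lay at 8.12 to 8.58 in wild types on PBS, 8.01 to 8.53 in wild types on the trap, 7.65 to 7.99 in mutants on PBS and 7.87 to 8.04 in mutants on the trap, with 2 of 6 called lower in mutants on PBS and 0 called for the trap in mutants. Of 8 macrophage and myeloid genes 2 were lower in mutants on PBS and 1 was higher with the trap in mutants, and their means overlapped (6.57 to 6.78 in wild types on PBS, 7.10 to 7.73 in wild types on the trap, 6.12 to 7.17 in mutants on PBS and 6.61 to 7.33 in mutants on the trap). The part of connective tissue, endothelial and myeloid cells in the Fstl1 and Fst values was not tested.

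RNA measures of the muscle arrays moved with the same groups. The actin difference ran from 0.16 to 0.18 in wild types on PBS, from -0.06 to 0.14 in mutants on PBS and from 0.09 to 0.20 in treated mutants. In wild types on the trap it ran from 0.13 to 0.40, with 18S at 13.24 to 13.37. The 18S ribosomal RNA control lay at 13.11 to 13.28 in wild types on PBS, 12.50 to 13.13 in mutants on PBS and 13.05 to 13.40 in treated mutants. With the actin measure as a covariate, chosen after seeing the data, the trap effect in mutants was 1.08 for Fstl1 1416221_at (limma adjusted p = 0.0721) and 1.41 for 1448259_at (adjusted p = 0.0208). With the 18S measure it was 1.47 (adjusted p = 0.0882) and 1.99 (adjusted p = 0.0254). The lower Fstl1 in untreated mutants stayed called with either covariate, while the Fst pair did not with 18S (-0.94 and -0.89, limma adjusted p = 0.0925 and 0.0822) and its probe set 1434458_at did not with actin (-0.69, adjusted p = 0.0974). On PBS every mutant muscle array lay below every wild-type muscle array in the actin measure, and the 18S ranges barely overlapped. Neither covariate can be separated well from genotype there, so the lost Fst calls decide nothing.

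**Figure D3:**
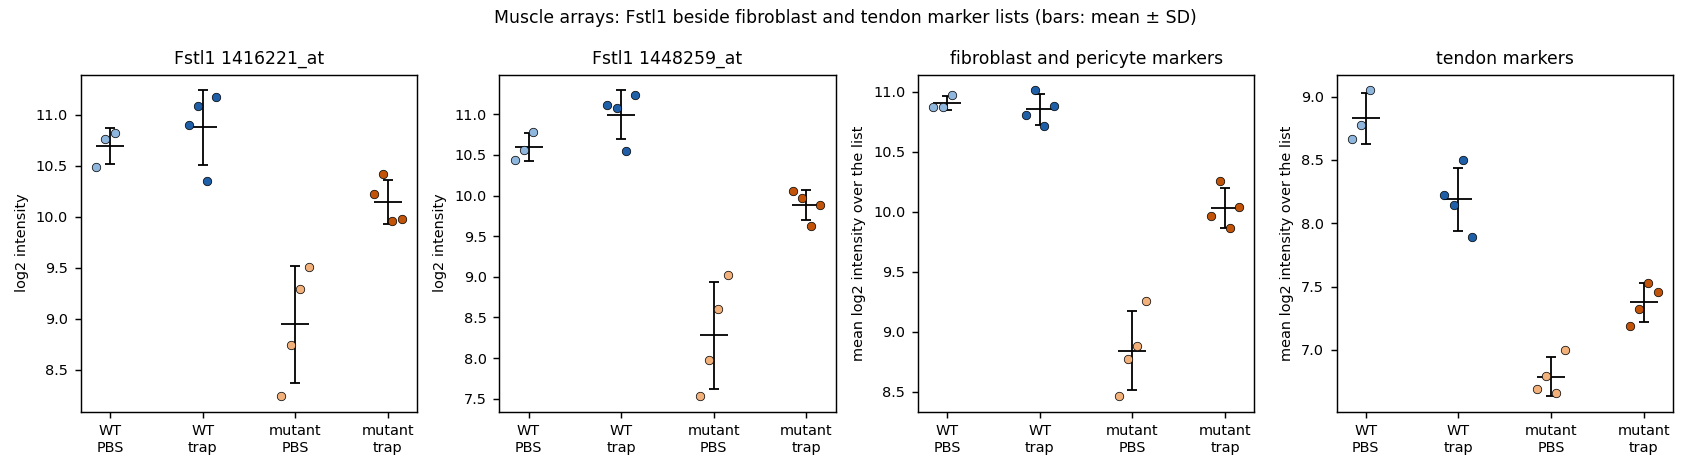
Log2 intensity of the Fstl1 probe sets and mean log2 intensity of the fibroblast and pericyte list and the tendon list (vertical axes) on each muscle array; points are animals, bars the mean ± SD of 3 or 4. In each panel the mutants on PBS are lowest and the treated mutants lie between them and the wild types on PBS.

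The tissues were then compared in the same animals, with the animal as a random block. In untreated wild types 5 of the 8 probe sets were called lower in kidney than in muscle and 0 higher (33.5% of all probe sets were lower, 27.8% higher, 61.2% either). The arrays did not overlap on 6, against 68.5% of all. Kidney minus muscle, Fstl1 differed by -1.93 ± 0.25 and -2.15 ± 0.26, and Inhba by -1.06 ± 0.12 (limma adjusted p = 1.27e-07, 4.93e-08 and 1.06e-08). Fst was called on 1434458_at (-0.72 ± 0.27, adjusted p = 0.0262) and not on 1421365_at (-0.37 ± 0.21). The Inhbb probe sets pointed in opposite directions, with -0.75 ± 0.13 on 1426859_at (adjusted p = 1.27e-05) and 0.51 ± 0.29 on 1426858_at, and Fstl3 gave 0.26 ± 0.20. On 1426858_at both tissues read low, at mean percentiles of 34.4 in kidney and 24.5 in muscle. Kidney array medians were 0.115 higher than muscle array medians in these animals.

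Genotype changed the order of the tissues. For Inhba the 8 groups ran from treated mutant kidney (7.04 ± 0.24, SD) and untreated mutant kidney (6.96 ± 0.07), which overlapped, through wild-type muscle (6.57 ± 0.13 treated, 6.49 ± 0.04 untreated) and mutant muscle (6.26 ± 0.13 and 6.19 ± 0.14) to wild-type kidney (5.82 ± 0.12 treated, 5.42 ± 0.19 untreated), and arrays of the 2 treatments overlapped in each of the first 3 pairs. For Inhbb 1426858_at the mutant kidneys (8.70 ± 0.53 treated, 8.48 ± 0.54 untreated) stood apart from the other 6 groups, whose means ran from 5.25 to 4.65 with each overlapping the next. For its other probe set the order was set by tissue, from 7.29 to 7.02 in muscle and from 6.62 to 6.49 in kidney, with every neighbour overlapping.

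For Fst 1421365_at the mutant kidneys led (8.27 ± 0.20 untreated, 8.15 ± 0.40 treated), followed apart from them by untreated wild-type muscle (7.16 ± 0.44), and the remaining means ran from 6.79 to 6.38 with overlapping neighbours. For Fst 1434458_at the untreated wild-type muscles (7.24 ± 0.31) overlapped treated mutant kidney (7.91 ± 0.57) and stood apart from the groups below, at 6.56 to 6.01. For Fstl1 1416221_at untreated mutant kidney (11.46 ± 0.25), treated mutant kidney and both wild-type muscle groups overlapped in turn. Treated mutant muscle (10.14 ± 0.22) stood apart from both neighbours in this order, untreated wild-type muscle above it and treated wild-type kidney below, and was followed by treated wild-type kidney (9.01 ± 0.43), untreated mutant muscle (8.95 ± 0.57) and untreated wild-type kidney (8.76 ± 0.12). For 1448259_at the lowest group was untreated mutant muscle (8.28 ± 0.66). Fstl3 had its 4 kidney groups, 7.15 to 6.27, above the muscle groups, 6.00 to 5.82, by their means, with untreated wild-type kidney apart from treated wild-type kidney.

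The genotype difference on PBS was larger in kidney than in muscle for 7 of the 8 probe sets and all 5 genes (17.4% of all probe sets were called in this direction, 35.1% in either). The differences of differences were 1.84 ± 0.16 for Inhba, 2.71 ± 0.39 for Inhbb 1426858_at, 2.23 ± 0.28 and 2.43 ± 0.36 for Fst, 4.44 ± 0.33 and 4.92 ± 0.35 for Fstl1 and 1.05 ± 0.27 for Fstl3. For Fst and Fstl1 the tissues had opposite signs, each called within its own tissue. The trap effect in mutants was called different between tissues for the pair of Fstl1 probe sets and for no other member, at -1.38 ± 0.30 (limma adjusted p = 0.00867) and -1.68 ± 0.32 (adjusted p = 0.00293), kidney minus muscle, where 2.61% of all probe sets were called in this direction and 4.04% in either.

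The rest of the activin pathway was read from 5 lists with 44 genes measured, each represented by its brightest probe set in the tissue. In mutant kidneys on PBS 21 were called higher and 7 lower, with a median change of 0.17 against -0.08 for all genes (24.7% of genes were called higher and 26.2% lower). Among intracellular signalling and feedback genes 9 of 12 rose and 1 fell; the largest rise was Pmepa1, a SMAD-induced inhibitor of the pathway (2.14 ± 0.16), and the fall was Zfyve9, the SMAD anchor (-0.30 ± 0.10). Among antagonists and other follistatin-domain proteins 6 of 16 rose and 2 fell, led by the matrix protein Smoc2 (2.36 ± 0.20), with Fstl5 the largest fall (-0.37 ± 0.13). Of 9 receptors and co-receptors 4 rose and 0 fell, with the type I receptor Acvr1 highest (0.85 ± 0.14). Of the 3 other subunits 1 rose and 2 fell. Inha, the inhibin alpha subunit that pairs with beta subunits, rose by 0.74 ± 0.17 and Inhbc had the largest fall, by 0.36 ± 0.10. Of the 4 convertases that can cleave such precursors 1 rose and 2 fell. Pcsk5 rose by 1.14 ± 0.23 and Pcsk6 had the largest fall, by 1.39 ± 0.13.

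The trap was followed by few calls among these 44 in kidney. In wild types 1 gene was called: Pmepa1 read 7.17 on the trap and 8.02 on PBS on average (-0.84 ± 0.16, limma adjusted p = 0.02), where 0.675% of genes were called lower. In mutants 1 was called, the proteoglycan Spock2 (-0.70 ± 0.14, adjusted p = 0.0231), where 1.09% of genes were called lower. With the 18S covariate neither was called (-0.79 ± 0.19, limma adjusted p = 0.135, and -0.78 ± 0.25, adjusted p = 0.216), and with the actin covariate both were. Loss of the calls with 18S decides nothing here, since 18S separates trap from PBS arrays in kidney. Between treated mutants and treated wild types 20 of 44 were higher and 6 lower (21.9% and 23.6% of all genes), of which 18 and 3 were also called in that direction on PBS. Pmepa1 was at 2.51 ± 0.14. Of 9 receptors and co-receptors 1 was called higher and 2 lower, against 4 and 0 on PBS. The 2 lower calls were lost with the actin covariate (limma adjusted p = 0.103 and 0.152) and with the 18S covariate (0.08 and 0.15). For the interaction in kidney 0 of the 44 were called, where 1.18% of all probe sets were, so a change of the receptors with treatment was not shown.

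In mutant muscle on PBS 6 of the 44 were called higher and 10 lower, with a median change of -0.17 against -0.05 for all genes (6.73% of genes were called higher and 8.81% lower). The follistatin-domain list held 6 of these falls among 16 genes and 1 rise, Spock2 (0.54 ± 0.16), and the largest fall was the collagen-binding matrix protein Sparc (-1.94 ± 0.12). The pseudoreceptor Bambi fell by 1.21 ± 0.17. Inha fell by 0.88 ± 0.22, Pcsk5 fell by 1.24 ± 0.22 and Pcsk6 fell by 1.16 ± 0.13, and the convertase Furin rose by 0.91 ± 0.20. The activin type I receptor Acvr1b rose by 1.10 ± 0.19, Acvr1 fell by 0.58 ± 0.16, and the SMAD co-repressor Tgif1 rose by 1.19 ± 0.29. With the actin covariate 2 of the 44 were higher and 6 lower, and with the 18S covariate 0 and 5. Both covariates run close to genotype in these muscle arrays, so the lost calls decide nothing.

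With the trap in mutant muscle 2 of the 44 rose and 1 fell, where 4.11% of genes were called higher and 2.09% lower. Sparc rose by 1.08 ± 0.12 and Smoc2 by 0.76 ± 0.16, and Acvr1b fell by 0.88 ± 0.17. Of these 3, Sparc alone was called with the actin covariate (1.12, limma adjusted p = 0.00219) and with the 18S covariate (1.00, adjusted p = 0.0254). Sparc was also the 1 gene of the 44 called for the interaction in muscle (1.31 ± 0.17, limma adjusted p = 0.00409; 0.129% of genes were called higher). In wild-type muscle 0 of the 44 were called with the trap, where limma called 0.0337% of genes higher and 0.0281% lower. Under the trap 1 of the 44, Sparc, was lower in mutant muscle (-0.63 ± 0.12, adjusted p = 0.0154, and 0.0968 with the actin covariate; 1.19% of genes were lower). Treated mutants against untreated wild types had 3 lower, where 0.742% of genes were, namely Bambi (-0.96 ± 0.17), Sparc (-0.85 ± 0.12) and Pcsk6 (-0.83 ± 0.13).

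**Figure D4:**
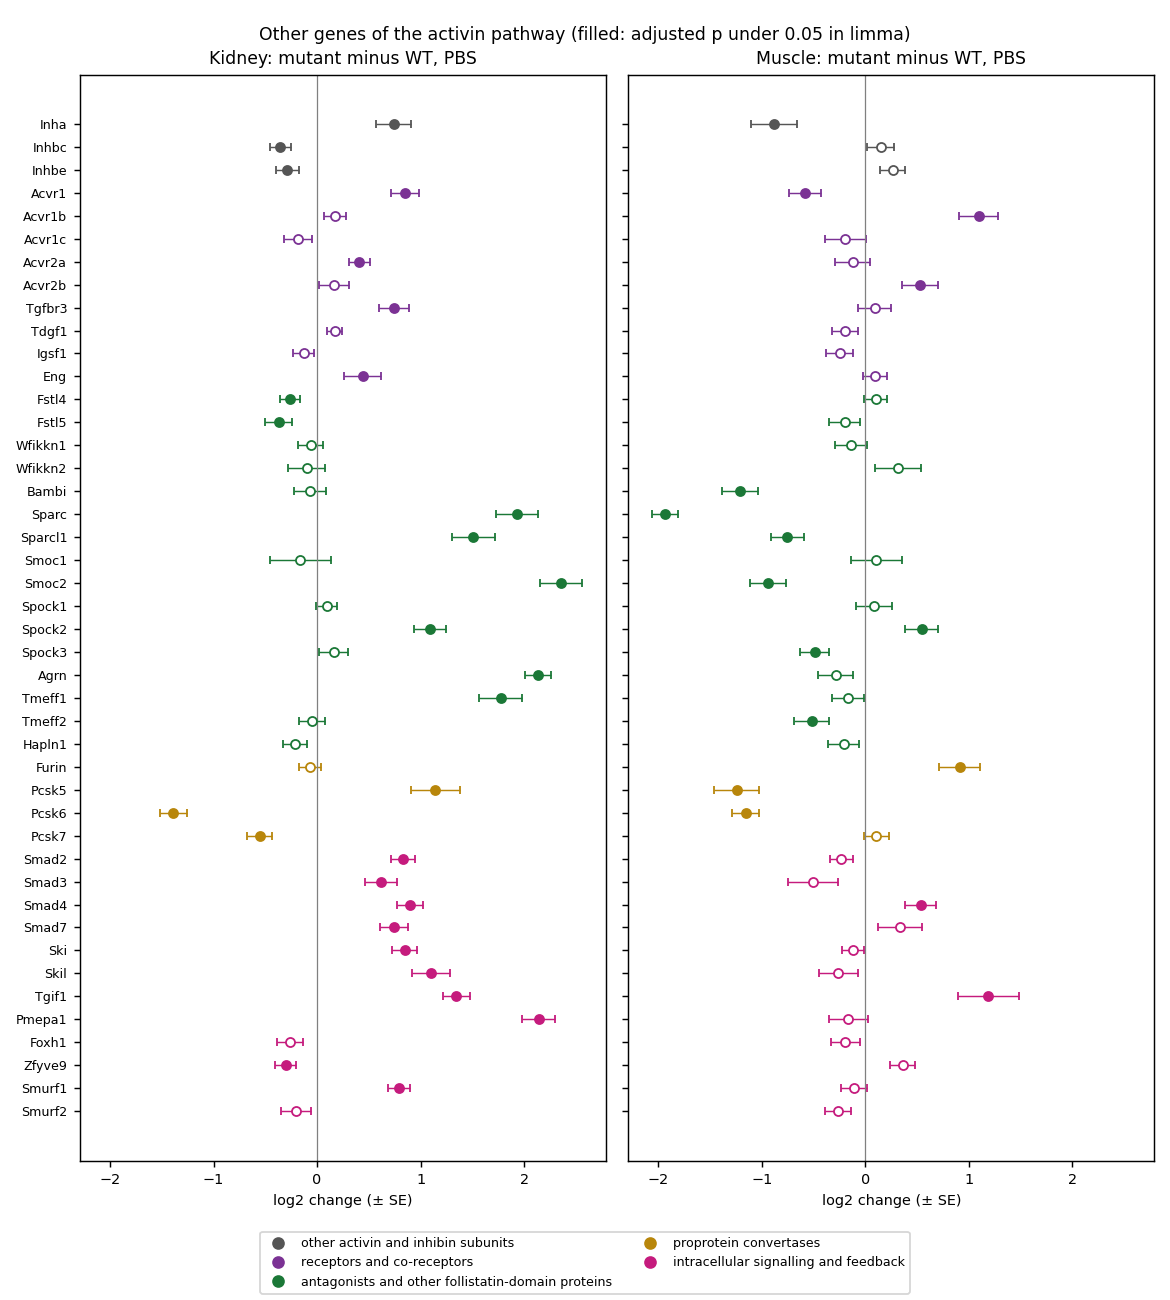
Log2 change (horizontal axis) ± SE between mutants and wild types on PBS for 44 other genes of the activin pathway, in kidney (left) and muscle (right), coloured by list; filled points are called by limma at an adjusted p under 0.05. In kidney 21 were higher and 7 lower, and in muscle 6 were higher and 10 lower, with Sparc at 1.93 in kidney and -1.94 in muscle.

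The genes whose profile over the 15 arrays of a tissue came nearest to a member were found by the root mean square difference of the centred log2 values, as a description. In kidney these were Mex3d, Rab7b and Procr for Inhba (0.168 to 0.182), Nkd2, Runx1 and Ms4a6b for Inhbb (0.336 to 0.358), Sinhcaf, Apaf1 and Efna5 for Fst (0.131 to 0.209), Tmsb10, Vim and Coro1a for Fstl1 (0.125 to 0.190) and Slco2a1, Arhgef1 and Sertad1 for Fstl3 (0.161 to 0.201). In muscle they were Tek, Efr3b and Atp2a3 for Fst (0.227 to 0.245) and Rcn1, Cd34 and Col14a1 for Fstl1 (0.185 to 0.205). Each gene was represented by its brightest probe set in the tissue. For Inhbb in kidney this was 1426858_at, which is the brighter one only through the mutants: wild types on PBS averaged 5.16 on it and 6.49 on 1426859_at. On that probe set the distance for Inhbb was the largest of the 5 in kidney, as was its genotype difference, and neither holds for 1426859_at by this choice.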

How the data were processed

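RNA of both tissues was read on Affymetrix Mouse Genome 430 2.0 chips. The deposited values are log2 intensities made by the authors, whose normalization is not stated in the material used here; the scale was inferred from their range. The 31563 of 35088 probe sets with 1 symbol were used, unfiltered, and array medians over them were 6.21 to 6.39 in kidney and 6.04 to 6.18 in muscle. The number of arrays limits the precision.

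Each tissue was fitted alone with limma 3.58.1 (R 4.3.3; 4 group means, eBayes, Benjamini-Hochberg, 95% moderated intervals). Tissues were compared over 30 arrays with animal as a random block (consensus correlation 0.0717). Replicates were separate animals, and replicate numbers did not pair them across groups. The script was tested on simulated data.

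Named were all members, the targeted gene, the largest called rise and fall of each pathway list and the 3 nearest profiles per member called in a tissue. Bambi and Pcsk6 in mutant muscle on PBS, Smoc2 with the trap, Col1a1 and Thy1 were named after their values were seen. Members and lists were chosen with earlier results of these data known. The alternatives were gene-level summaries, normalization, a filter on dim probe sets, weights, a trend, a fit of only the groups compared, blocks and left-out arrays; the actin and 18S covariates were chosen after seeing the data. Promoters are from RefSeq, matched by symbol for 4 of 5 genes. Figures used matplotlib 3.10.9 in Python 3.11.15.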

Additional observations from a re-analysis of the deposited data

Results flagged for a closer look

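The genotype difference on PBS differed between kidney and muscle, kidney minus muscle, by a test of the difference itself in the fit of 30 arrays. It was 1.84 for Inhba, 2.71 for Inhbb 1426858_at, 2.23 and 2.43 for Fst, 4.44 and 4.92 for Fstl1 and 1.05 for Fstl3. The untreated wild types and mutants are the same arrays in all of these values. The trap effect in mutants also differed between the tissues for the Fstl1 probe sets, by -1.38 and -1.68.

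In kidney, the treated mutant replicate 3 stood far above the other 3 animals of its group for Fst 1421365_at, at 8.75 against 7.92 to 7.98. It was 1 of 48 groups of 4 checked, and chance alone marks about 1 in 20 of such groups.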

How the results depend on the processing

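Of 42 called member results, 34 kept their call and direction under every alternative run (12 to 25 for each result), 8 lost the call under at least 1, and 0 reversed. Of 78 uncalled results 13 were called under some alternative. The kidney counts of 7, 6 and 7 called probe sets (genotype on PBS, genotype on the trap, treated mutants against untreated wild types) held in every left-out-array fit.

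For muscle genotype on PBS the count of 4 was 2 with 1 probe set for each gene, with the mean of a gene's probe sets and with the 18S covariate, 6 with array weights, and 2 to 5 with an array left out. For muscle genotype on the trap the count of 1 was 0 with 1 probe set, the mean or the actin covariate, 2 with array weights and 0 to 1 with an array left out. For the trap in wild-type muscle the count of 0 was 1 with array weights. For the trap in mutant muscle the count of 2 was 1 with 1 probe set, the mean, and the actin and 18S covariates. For treated mutants against untreated wild types in muscle the count of 1 was 0 with the mean, 2 with array weights and 0 to 1 with an array left out, and with only the groups compared it was again 1, with Fstl1 1448259_at in place of Fst 1434458_at. Where 1 probe set or the mean stood for a gene, fewer features were counted.

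Kidney against muscle gave 3 in place of 5 with 1 probe set or the mean, and 8 with array weights. The tissue difference in genotype gave 4 in place of 7 with 1 probe set, and that in the trap effect 1 in place of 2 with 1 probe set or the mean. The mean of the Inhbb pair turned the tissue difference of 1426859_at to 1.34 (limma adjusted p = 3.79e-05), since it holds the values of 1426858_at.

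Replicate numbers only count the animals within a group, and each group holds different animals. Same-numbered arrays did not deviate together (median correlation 0.032 in kidney and -0.012 in muscle over 21 pairs each; 4 and 6 of 15 arrays fell nearest to their own number). With the replicate number as a block, treated mutants against untreated wild types in muscle had 0 member calls in place of 1 (Fst 1434458_at, -0.98, adjusted p = 0.0529), and Inhbb 1426858_at was called for muscle genotype on PBS (0.72, adjusted p = 0.042). This block changed no other member call. Since the number stands for no known pairing or batch, these changes decide nothing about either.

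Over all probe sets, muscle genotype on PBS gave 4857 calls, 1189 with the 18S and 2163 with the actin covariate, and the trap in mutant muscle gave 1935, 61 and 309. With the 18S covariate kidney calls went from 508 to 27 (trap in mutants), 387 to 11 (trap in wild types) and 14190 to 6236 (treated mutants against untreated wild types). In kidney the 18S signal of every array on the trap lay below that of every array on PBS, so this covariate and the trap are confounded there. In muscle on PBS every mutant array lay below every wild-type array in the actin measure, and the 18S ranges barely overlapped. There neither covariate can be separated well from genotype. The causes were not tested.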
